A study of Homo sapiens with 8 samples.

Results

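IFI27, IFI6, IFI27L1 and IFI27L2 form a small family of short, hydrophobic membrane proteins, and their RNA was followed here across BEAS-2B cells given control or LY96 siRNA and then PBS or house dust mite (HDM) extract. The members were the rows with these 4 symbols among 26485 genes in each library's table, and all 4 were found. The family was selected on its FPKM values under HDM: IFI27 was among the genes that differed most between the siRNAs there, and the others were added as its relatives. The members' values in that comparison are therefore given as a description, and no test of a member there is read as a result. BEAS-2B is an established line of human bronchial epithelium immortalised with viral genes, and LY96 encodes MD-2, the partner of the lipopolysaccharide receptor TLR4. The 4 groups were control siRNA with PBS (1 library), control siRNA with HDM (3 libraries), LY96 siRNA with PBS (1 library) and LY96 siRNA with HDM (3 libraries). All groups were maintained in BEGM, were moved to BEBM 24 h before stimulation and were harvested 24 h after it. All came from this single line, and no library without siRNA was analysed here. Whether replicate libraries stem from separate cultures is not in the labels, so p-values measure only how far these libraries differ among themselves, and that spread may be technical.

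Interferons are secreted antiviral cytokines. Type I and type III interferons act through JAK kinases on a complex that includes STAT2 and IRF9 and binds interferon-stimulated response elements near its target genes. IFI27 is a classical interferon-induced gene whose protein is found at mitochondria and the nuclear membrane and can sensitise cells to apoptosis, and its RNA in blood is widely used as a sign of viral infection. IFI6 is also interferon-induced; its protein is located at the endoplasmic reticulum and mitochondria, counters apoptosis and restricts flavivirus replication. IFI27L1 and IFI27L2 are relatives of IFI27 whose functions are less well described.

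IFI27, IFI27L1 and IFI27L2 lie side by side on chromosome 14, whereas IFI6 lies on chromosome 1. In GENCODE v29 (GRCh38), IFI27 runs from 94104836 to 94116698 on the plus strand, IFI27L1 from 94081282 to 94103846 on the plus strand and IFI27L2 from 94127779 to 94130253 on the minus strand. The gap between IFI27 and IFI27L1 is 990 bases, and that between IFI27 and IFI27L2 is 11081 bases. IFI6 runs from 27666061 to 27672218 on the minus strand. Transcripts were searched for exact shared stretches of 50 bases, a length chosen here, and inexact matches were not sought. Of 4446 distinct 50-base stretches in IFI27 transcripts, 0 occurred in another member and 1 in a transcript of another gene (AC116003.1), and the other members shared 0 such stretches with any gene.

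The promoters of IFI27 and IFI6 are shown because they carry the core letters of an interferon-stimulated response element and those of the other members do not. Whether these letters bear on the siRNA differences was not tested. Both are RefSeq sequences on GRCh38.p14, written 5′ to 3′ on the gene's strand and trimmed to bases upstream of the nearest GENCODE v29 exon. The IFI6 sequence ends at the start of the gene, whereas the IFI27 sequence lies inside the gene's span, because some GENCODE transcripts of IFI27 start further upstream. Capitals mark GAAANNGAAA, where N is any base, or its reverse complement TTTCNNTTTC. The IFI27 sequence is chr14:94110486-94110677 on the plus strand, and the IFI6 sequence is chr1:27672219-27672442 on the minus strand.
IFI27: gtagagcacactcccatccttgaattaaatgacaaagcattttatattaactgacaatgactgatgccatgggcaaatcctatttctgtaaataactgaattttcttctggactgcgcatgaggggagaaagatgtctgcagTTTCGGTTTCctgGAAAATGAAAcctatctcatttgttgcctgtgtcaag
IFI6: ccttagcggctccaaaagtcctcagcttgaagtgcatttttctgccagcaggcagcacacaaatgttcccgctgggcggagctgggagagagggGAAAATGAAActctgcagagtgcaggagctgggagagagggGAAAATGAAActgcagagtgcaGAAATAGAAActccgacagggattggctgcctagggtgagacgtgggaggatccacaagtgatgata

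IFI27 held 2 such matches, on opposite strands, at positions -108 to -99 and -95 to -86 from a RefSeq start at base 94110736. From its other RefSeq start, at base 94110815, the same matches lay at -187 to -178 and -174 to -165. IFI6 held 3, all on the gene's strand, at -156 to -147, -115 to -106 and -93 to -84 from its start at base 27672192. IFI27L1 and IFI27L2 held 0 in their windows, which says only that these letters are not in the 300 bases from 250 before to 50 after the start. Both strands of every window in the RefSeq table were searched in the same way. Of 35116 windows, 1255 (3.57%) held at least 1 match, 91 (0.259%) at least 2 and 13 (0.0370%) at least 3. Counted by gene, with the window of most matches taken for each, 4.38% of 27305 genes held at least 1 match and 0.311% at least 2. Of the 45 interferon-stimulated genes listed outside the family, 35 had a window. By the same count 24 of these held at least 1 match (68.6%) and 12 at least 2 (34.3%). A match is a string of letters and not a measured binding site.

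**Figure D1:**
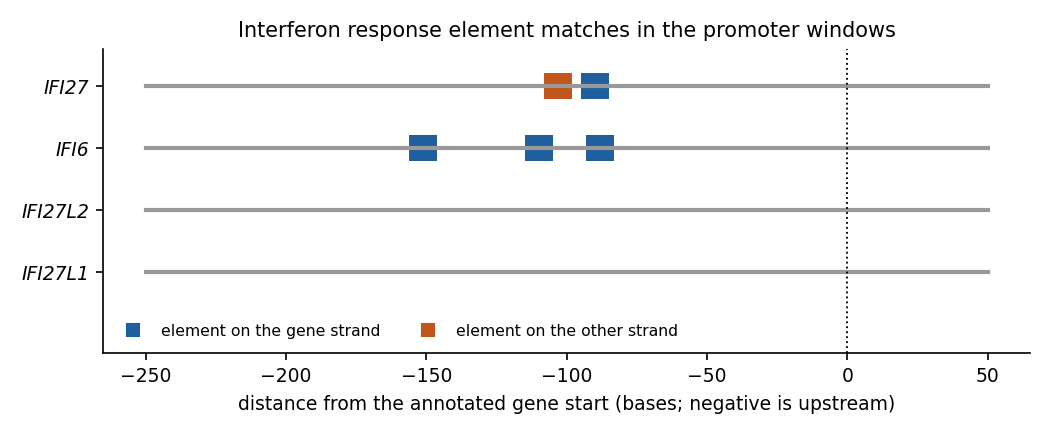
Positions of GAAANNGAAA or its reverse complement in the promoter window of each family member; the x axis is the distance in bases from the RefSeq start, and colour shows the strand (blue for the gene's strand, orange for the other). IFI27 has 2 matches and IFI6 has 3, all upstream of the start, and the lines of IFI27L1 and IFI27L2 are empty.

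IFI27 was one of the more abundant transcripts of these cells and was lower in every library with LY96 siRNA. Levels are in FPKM (fragments per kilobase of transcript, scaled to the sequenced fragments), which allows comparison between genes. IFI27 was at 249 FPKM in the control siRNA PBS library and at 227, 303 and 267 FPKM in the control siRNA HDM libraries. It was at 77.3 FPKM in the LY96 siRNA PBS library and at 80.6, 82.5 and 79.0 FPKM in the LY96 siRNA HDM libraries. The 4 libraries of each siRNA did not overlap, and PBS and HDM libraries of the same siRNA lay close together. IFI27 ranked between 139 and 186 from the top of 26485 genes with control siRNA and between 626 and 667 with LY96 siRNA. The mean over the HDM libraries was 266 ± 37.7 FPKM with control siRNA and 80.7 ± 1.77 FPKM with LY96 siRNA (SD, n = 3 each). The spread was thus larger with control siRNA, with a coefficient of variation of 14.2% against 2.19%. In bulk RNA, fewer cells expressing a gene and less RNA per cell cannot be told apart.

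IFI6 was the second most abundant member with control siRNA and differed in the same direction by a smaller amount. It was at 117 FPKM in the control siRNA PBS library and at 102, 130 and 120 FPKM in the control siRNA HDM libraries. It was at 85.6 FPKM in the LY96 siRNA PBS library and at 85.7, 79.5 and 69.0 FPKM in the LY96 siRNA HDM libraries. Again the libraries of the siRNAs did not overlap, although the nearest values, 102 and 85.7 FPKM, were closer than for IFI27. The HDM means were 117 ± 14.4 FPKM with control siRNA and 78.1 ± 8.43 FPKM with LY96 siRNA (SD, n = 3 each). Libraries of the siRNAs failed to overlap, with LY96 siRNA lower, for 2 of 4 members and for 11.8% of all 12604 genes tested. This count includes the HDM libraries on which the family was chosen, so it is a description and is not read as a result.

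IFI27L2, the neighbour of IFI27 on the opposite strand, was less abundant than IFI6 and showed no such separation. IFI27L2 was at 38.9 FPKM in the control siRNA PBS library, at 42.5, 37.2 and 37.2 FPKM in the control siRNA HDM libraries, at 37.3 FPKM in the LY96 siRNA PBS library and at 38.5, 47.7 and 42.7 FPKM in the LY96 siRNA HDM libraries. The highest and the lowest of these 8 values differed little, and the siRNA groups overlapped. IFI27L1, the least abundant member, was at 12.1 FPKM in the control siRNA PBS library, at 12.6, 12.6 and 12.9 FPKM in the control siRNA HDM libraries, at 12.6 FPKM in the LY96 siRNA PBS library and at 10.4, 14.2 and 11.5 FPKM in the LY96 siRNA HDM libraries. Its siRNA groups also overlapped, and its 3 LY96 siRNA HDM libraries (12.0 ± 1.95 FPKM, SD) were spread on both sides of the control ones (12.7 ± 0.176 FPKM, SD, n = 3 each).

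**Figure D2:**
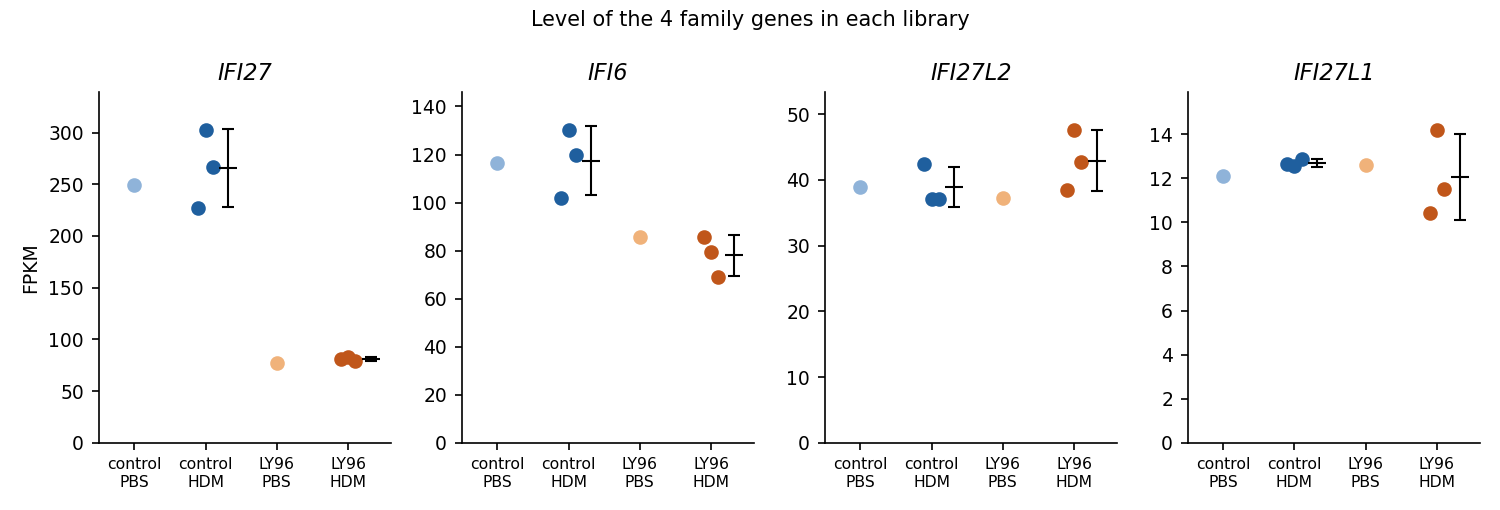
Level of each family member in each of the 8 libraries, in FPKM on a linear axis from 0 that differs between genes, by siRNA and treatment; each point is 1 library, and bars show the mean and SD of the 3 HDM libraries. IFI27 falls into separate levels by siRNA (227 to 303 and 77.3 to 82.5 FPKM), IFI6 does so by a smaller margin, and the points of IFI27L1 and IFI27L2 overlap.

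The order of the members therefore depended on the siRNA for its upper positions only. With control siRNA, IFI27 stood above IFI6 in each library, with a ratio of IFI27 to IFI6 of 2.13 under PBS and of 2.23, 2.32 and 2.22 under HDM. With LY96 siRNA the ratio was 0.903 under PBS and 0.941, 1.04 and 1.14 under HDM, so the order of IFI27 and IFI6 was not settled there. IFI27L2 was below both and IFI27L1 below IFI27L2 in all 8 libraries. IFI27 made up between 59.2% and 62.7% of the family's summed FPKM with control siRNA and between 36.3% and 39.1% with LY96 siRNA. The summed level of the 4 members was 416 FPKM (PBS) and 384, 483 and 437 FPKM (HDM) with control siRNA, and 213 FPKM (PBS) and 215, 224 and 202 FPKM (HDM) with LY96 siRNA. The ratio of IFI27 to its neighbour IFI27L2 ranged from 5.35 to 8.15 with control siRNA and from 1.73 to 2.09 with LY96 siRNA.

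**Figure D3:**
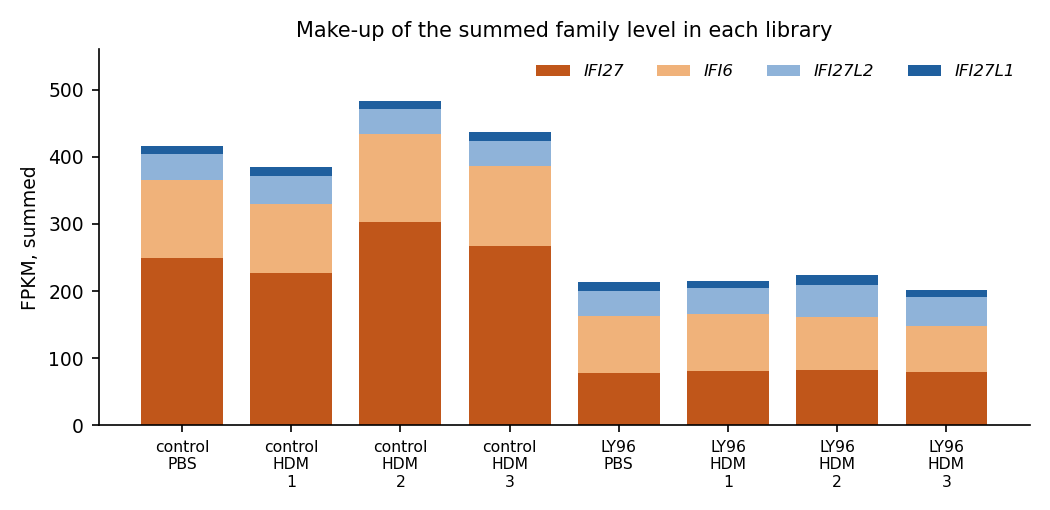
Stacked bars of the FPKM of the 4 family members in each of the 8 libraries, with the y axis in FPKM from 0. The summed height is between 384 and 483 FPKM with control siRNA and between 202 and 224 FPKM with LY96 siRNA, and most of the change in height is in the IFI27 segment.

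Under HDM, which is the comparison that chose the family, the IFI27 mean was 3.29 times higher with control than with LY96 siRNA, and the IFI6 mean was 1.50 times higher. On the log2(FPKM + 1) scale, LY96 minus control siRNA was -1.70 ± 0.10 (SE) for IFI27, the rank 2 from the bottom of 12598 genes tested, and -0.58 ± 0.12 for IFI6, rank 88. The values were -0.08 ± 0.09 for IFI27L1 and 0.14 ± 0.08 for IFI27L2. The call used throughout is an adjusted p under 0.05 in limma over all genes tested, for which 15.6% of genes were called in this comparison, 8.92% as lower and 6.68% as higher. All 4 members passed the level filter, and 2 of 4 (IFI27 and IFI6) met this call, which is not read as a result because the rule used this contrast.

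The family was selected on the HDM comparison, although results of all 8 libraries were known by then, and in the PBS libraries IFI27 differed by nearly the same amount. IFI27 was at 249 FPKM with control siRNA and at 77.3 FPKM with LY96 siRNA, a ratio of 3.22. The log2 difference was -1.67 ± 0.18 (SE; 95% confidence interval -2.11 to -1.24) with a limma adjusted p of 0.0339, and IFI27 ranked 10 from the bottom of 12604 genes. In this comparison 0.468% of genes were called (0.214% as lower and 0.254% as higher), and 1 of 4 members was, as lower. With 1 PBS library per siRNA, the test takes the spread from the HDM libraries, is to that extent not independent of them, and assumes that a PBS library varies like them. Omission of control HDM replicate 3 ended the call (adjusted p = 0.0729), as did that of LY96 HDM replicate 1 (0.0872), 2 (0.0824) or 3 (0.0725), while the difference itself, being that of the PBS libraries, stayed at -1.67. Over the other alternatives, among them omission of control HDM replicate 1 or 2, the adjusted p ranged from 7.74e-04 to 0.0375.

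The other members did not pass the test under PBS. IFI6 was at 117 FPKM with control siRNA and 85.6 FPKM with LY96 siRNA, a ratio of 1.36. Its log2 difference of -0.44 ± 0.20 (SE) had a 95% interval of -0.95 to 0.07 and a limma adjusted p of 0.369. This interval holds both no difference and the value seen under HDM. The difference was 0.05 for IFI27L1 (95% interval -0.32 to 0.43, adjusted p = 0.912) and -0.06 for IFI27L2 (-0.40 to 0.28, adjusted p = 0.884). Both intervals lie wholly above the interval of IFI27.

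Some cell type markers also differed between the siRNAs. Of the 8 epithelial markers, the limma call under HDM gave 3 lower with LY96 siRNA, the keratins KRT19 (-0.66), KRT8 (-0.25) and KRT18 (-0.24), and 1 higher, the adhesion gene CDH1 (0.49). Of all genes, 8.92% were called lower and 6.68% higher under HDM, and 0.214% and 0.254% under PBS. Under PBS 0 of the epithelial markers were lower (3 at an unadjusted p under 0.05), and KRT5 (0.41) and CDH1 (0.87) were higher. Of the tested markers of other cell types, CD74 of leukocytes (0.06) and PDGFRB of fibroblasts (-0.08) were not called under HDM. CD68 of macrophages (0.54) and COL1A1 of fibroblasts (0.37) were higher under HDM, and neither was called under PBS. The part of these changes in the IFI27 and IFI6 differences was not tested.

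No member passed the test for HDM extract itself. Averaged over both siRNAs, HDM minus PBS was 0.07 ± 0.10 for IFI27 (95% interval -0.18 to 0.32, limma adjusted p = 0.754) and -0.07 ± 0.12 for IFI6 (-0.36 to 0.23, adjusted p = 0.810). It was -0.01 ± 0.09 for IFI27L1 (adjusted p = 0.982) and 0.10 ± 0.08 for IFI27L2 (adjusted p = 0.584). In limma 0 of 4 members were called, where 8.36% of the 12604 genes were called (3.5% as lower and 4.86% as higher). At an unadjusted p under 0.05 it was 0 of 4 members and 21.6% of all genes, so with 4 members these counts are near the background. The ratio of HDM to PBS for IFI27 was 1.07 with control siRNA and 1.04 with LY96 siRNA. For IFI6 it was 1.01 with control siRNA and 0.912 with LY96 siRNA.

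The siRNA difference of IFI27 was thus of similar size with and without HDM. The interaction, which is the siRNA difference under HDM minus that under PBS, was -0.02 ± 0.20 for IFI27 (95% interval -0.52 to 0.48) and -0.14 ± 0.24 for IFI6 (-0.73 to 0.45). It was -0.13 ± 0.19 for IFI27L1 and 0.20 ± 0.17 for IFI27L2. In limma 0 of 4 members were called and 0 of 4 had an unadjusted p under 0.05, with 0.0555% of all genes called and 7.58% at that unadjusted p. These values contain the contrast that chose the family and are given as a description, and the intervals leave room for interactions of up to 0.52 in size for IFI27.

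**Figure D4:**
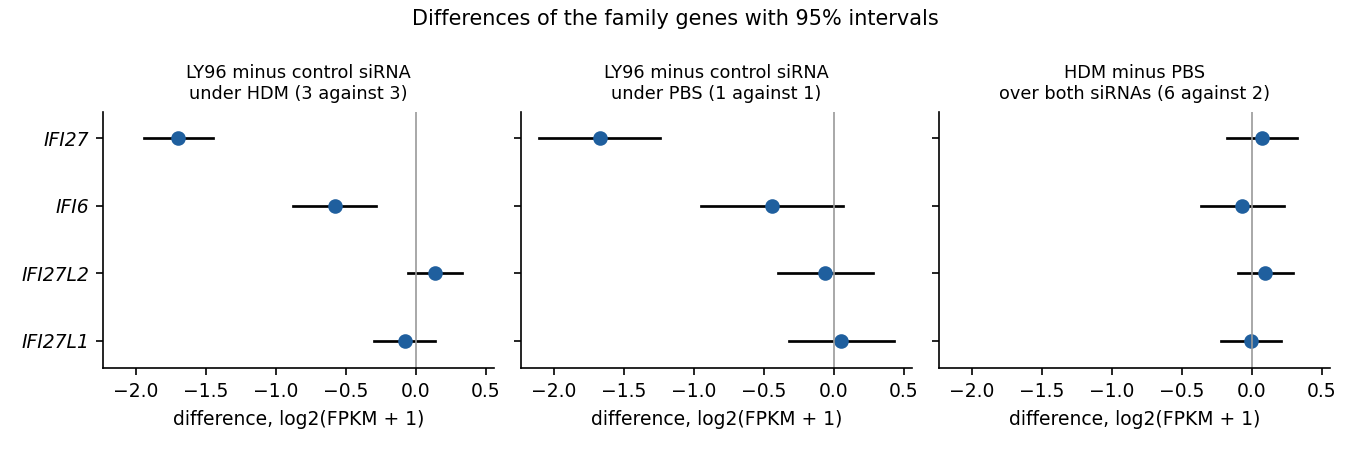
Log2(FPKM + 1) differences of the 4 members as points with 95% confidence intervals as lines, for LY96 minus control siRNA under HDM, the same under PBS, and HDM minus PBS over both siRNAs. IFI27 lies at -1.70 and -1.67 in the siRNA comparisons under HDM and PBS, and IFI6 at -0.58 and -0.44. The intervals of IFI27 in both siRNA comparisons and of IFI6 under HDM exclude 0. All others include 0, that of IFI6 under PBS among them.

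IFI27 and IFI6 were set beside 45 interferon-stimulated genes outside the family, of which 44 were tested and BATF2 was below the level filter. Under HDM, 18 of 44 were lower with LY96 siRNA by the limma call (40.9%, against 8.92% of all genes) and 1 was higher (IFITM2). The median log2 difference was -0.25 (all genes -0.02). The largest difference on this scale was that of CMPK2, a mitochondrial nucleotide kinase, at -0.86 ± 0.12. The antiviral GTPase MX1 at -0.62 ± 0.14 and the ISG15 ligase HERC5 at -0.61 ± 0.10 followed. The added 1 shrinks differences of low genes, so the order differs for ratios of mean FPKM. The HDM ratio of LY96 to control siRNA was 0.376 for CMPK2, 0.497 for RSAD2, 0.598 for HERC5 and 0.646 for MX1, against 0.304 for IFI27. The difference of IFI27 was lower than that of each of the 44 listed genes, which follows in part from its choice for a large difference here. The difference of IFI6 came close to those of MX1 and HERC5. The count of 18 depended on single libraries. With 1 library left out, it was 7 (control HDM replicate 2), 7 (LY96 HDM replicate 2), 9 (LY96 HDM replicate 3) and 11 (control HDM replicate 3), and it was 10 without the level filter, and MX1 was among the genes no longer called without any 1 of these libraries.

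Under PBS, the listed genes lay mostly on the same side but few passed the test. Of 44 genes, 39 were below 0, with a median of -0.13 (all genes -0.02). The difference was below 0 under both PBS and HDM for 36 of 44 listed genes and for 39.6% of 12566 genes tested in both. By the limma call, 1 of 44 was lower (2.27%, against 0.214% of all genes) and 0 were higher; 6 and 0 had an unadjusted p under 0.05. Over both directions that is 6 of 44 against 16.1% of all genes, a share near the background. All 6 were lower, and the share of all genes lower at that unadjusted p was not counted. The gene called was BST2, or tetherin, which holds budding virions at the cell surface. BST2 was at 78.7 FPKM (PBS) and 82.8, 90.1 and 87.7 FPKM (HDM) with control siRNA, and at 53.0 FPKM (PBS) and 63.3, 64.1 and 64.6 FPKM (HDM) with LY96 siRNA. Its libraries did not overlap by siRNA, and its log2 difference was -0.56 ± 0.06 (SE) under PBS (adjusted p = 0.0159) and -0.43 ± 0.04 under HDM. CMPK2 had the lowest PBS value of the list, -0.89 ± 0.21, which did not pass (adjusted p = 0.112), and IFI27 was below all 44 listed genes there too. As ratios of LY96 to control siRNA under PBS, CMPK2 (0.360) and IFI27 (0.311) lay closer together.

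BST2 was among the 6 most abundant listed genes, and others of them, IFITM3 and IFITM2, had small siRNA differences. IFITM3, a membrane protein that blocks virus entry, had 597 and 584 FPKM in the PBS libraries of control and LY96 siRNA. Its siRNA difference was -0.03 ± 0.04 under HDM and -0.03 ± 0.07 under PBS (limma adjusted p = 0.871). Its relative IFITM2 was at 191 and 183 FPKM in the PBS libraries, and its rise under HDM (0.14 ± 0.04) lost the call without any single library other than control HDM replicate 2 and without the level filter. A high level of an interferon-stimulated gene in these cells was thus seen with and without a difference between the siRNAs.

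**Figure D5:**
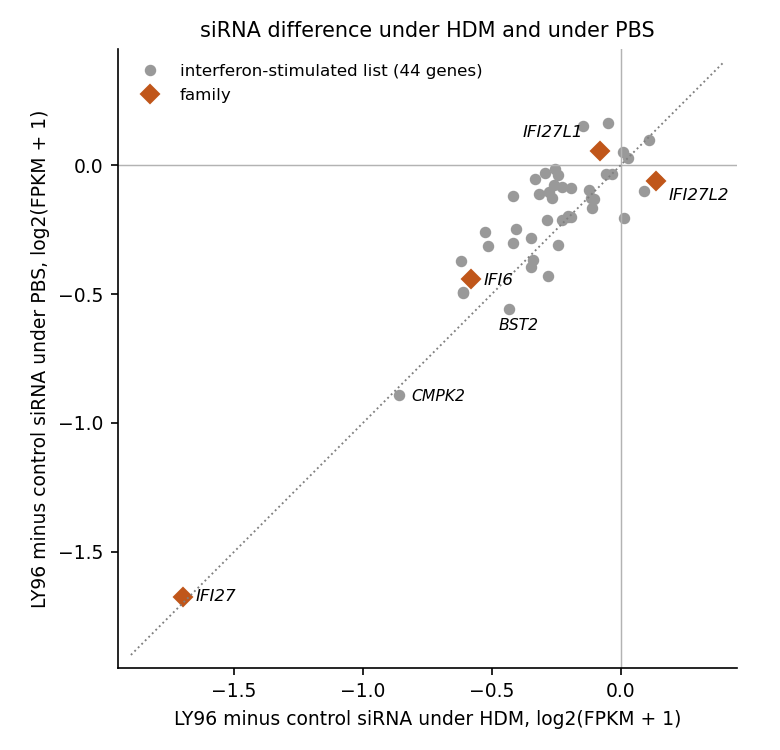
LY96 minus control siRNA on the log2(FPKM + 1) scale under HDM (x axis) and under PBS (y axis) for the family and the 44 tested interferon-stimulated genes; each point is 1 gene, diamonds are the family, and the dotted line marks equal values. IFI27 lies at (-1.70, -1.67) and CMPK2, the lowest of the list, at (-0.86, -0.89). The added 1 shrinks the difference of CMPK2, whose level is low. As ratios of LY96 to control siRNA under HDM and PBS, CMPK2 (0.376 and 0.360) is much nearer to IFI27 (0.304 and 0.311). IFI6 (-0.58, -0.44) lies among the listed genes.

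Genes with several copies of the response element letters were compared with those without. Of the 9319 tested genes with a promoter window, 39 held at least 2 matches, IFI27 and IFI6 among them. The family was left out of the counts that follow, which leaves 37 genes. Under PBS, 1 of 37 was called lower with LY96 siRNA, namely BST2, against 0.604% of the 331 genes with 1 match and 0.145% of the 8949 with 0. Under HDM, 9 of 37 were lower (24.3%) and 1 was higher, against 12.1% lower and 8.46% higher with 1 match and 9.43% lower and 6.45% higher with 0. For the HDM effect, 6 of 37 were higher (16.2%), against 10.9% with 1 match and 4.65% with 0. Several of these genes are also on the interferon-stimulated list, so the counts are not separate from those above. Among listed genes called lower under HDM, BST2 held 2 matches and CMPK2 held 0. Among those not called there, ISG15 held 2 and IFI35 held 0.

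Some of the listed interferon-stimulated genes passed the test for HDM, and the family's difference from them was not tested; the interval of IFI27 (-0.18 to 0.32) holds the values of IFITM3 and BST2 below. By the limma call 8 of 44 were higher with HDM over both siRNAs (against 4.86% of all genes), and 0 were lower, with 15 and 1 at an unadjusted p under 0.05 (21.6% of all genes in either direction) and a median of 0.07 (all genes 0.01). They were IFITM3 (0.19 ± 0.04), BST2 (0.20 ± 0.04), TRIM22, LAMP3, ISG20, DHX58, IFI16 and UBE2L6. CMPK2, MX1 and HERC5, which like IFI27 had large siRNA differences, had HDM values of 0.05, 0.04 and -0.04 with adjusted p from 0.853 to 0.914. Without the level filter, 4 genes of the list were called higher.

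Of the interferons, which are the ligands upstream of IFI27 and IFI6, little RNA was seen. IFNA2, IFNG, IFNL1, IFNL2 and IFNL3 were listed at 0 FPKM in all 8 libraries, and IFNB1, IFNA1 and IFNK were below the level filter. An exact 0 in such tables can be a failed estimate. Only IFNE, an epithelial type I interferon, was tested. IFNE was at 2.11 FPKM (PBS) and 2.09, 1.46 and 1.58 FPKM (HDM) with control siRNA, and at 1.29 FPKM (PBS) and 1.09, 1.04 and 1.03 FPKM (HDM) with LY96 siRNA. These libraries did not overlap by siRNA, but the levels were low. The difference was -0.44 ± 0.17 under PBS (limma adjusted p = 0.258) and -0.39 ± 0.10 under HDM, where the call was lost without any single library other than control HDM replicate 2.

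Among receptors, kinases and factors of interferon signalling, 14 of 15 listed genes were tested and SOCS1 was below the level filter. Under HDM, 1 of 14 was lower with LY96 siRNA by the limma call and 1 was higher (IFNGR1, a chain of the interferon gamma receptor), shares near those of all genes (8.92% and 6.68%). The lower gene was STAT2 (-0.25 ± 0.04), a partner of IRF9 in the complex that binds the response element. STAT2 was at 34.6 FPKM (PBS) and 31.7, 32.5 and 32.3 FPKM (HDM) with control siRNA, and at 27.3 FPKM (PBS) and 28.2, 26.2 and 26.2 FPKM (HDM) with LY96 siRNA, without overlap. Under PBS 0 of 14 were called in limma, with 3 lower and 3 higher at an unadjusted p under 0.05 (16.1% of all genes), and STAT2 had -0.33 ± 0.07 (adjusted p = 0.0798).

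The proteins of 5 genes have been described as partners of IFI27 or IFI6 (SKP2, HSPA5, DDX58, XPO1 and NR4A1). Of these genes, 2 were lower and 1 was higher with LY96 siRNA under HDM (8.92% and 6.68% of all genes). Under PBS 0 were called in limma (0.468% of all genes), with 1 lower and 1 higher at an unadjusted p under 0.05 (16.1% of all genes). SKP2, a ubiquitin ligase subunit that controls cell cycle inhibitors, was at 31.1 FPKM (PBS) and 32.1, 31.6 and 30.4 FPKM (HDM) with control siRNA, and at 26.3 FPKM (PBS) and 24.9, 27.1 and 23.3 FPKM (HDM) with LY96 siRNA. These libraries did not overlap, with a log2 difference of -0.31 ± 0.05 under HDM and -0.23 ± 0.09 under PBS (adjusted p = 0.262). The other lower gene was DDX58, which encodes the viral RNA sensor RIG-I (-0.32 ± 0.09), and of the 6 omissions of a single library its call held in that of control HDM replicate 1. DDX58 is also on the interferon-stimulated list, so the partner count is not separate from the count of that list. HSPA5, the chaperone BiP of the endoplasmic reticulum, was the gene that was higher (0.23 ± 0.03 under HDM, and 0.21 ± 0.05 under PBS with adjusted p = 0.128). HSPA5 also rose with HDM over both siRNAs (0.29 ± 0.03, limma adjusted p = 5.76e-04).

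The genes most like IFI27 across the libraries were not those most like IFI6. Likeness was the Pearson r of log2(FPKM + 1) over all 8 libraries among 757 genes whose mean reached 5 FPKM and whose values had a range of at least 0.5 on the log2 scale. These r describe 8 points that fall into separate levels by siRNA, so they mostly reflect that difference. For IFI27 the leading genes were MARCKSL1, an actin regulator (r = 0.995), FEN1, a DNA flap endonuclease (0.985), the transcription factor SP6 (0.976), TCTEX1D2 (0.969) and NREP (0.967), with 0 of 5 on the interferon-stimulated list. IFI6 came at rank 19 (0.936). For IFI6 they were IFIT1 (0.984), OAS1 (0.980), HERC5 (0.978), MX1 (0.968) and IFIT2 (0.957), with 5 of 5 on that list, and IFI27 at rank 8. The limit of 5 FPKM left out low genes of that list, among them CMPK2 (mean 1.83 FPKM). CMPK2 was at 2.09 to 3.43 FPKM with control siRNA and at 0.923 to 1.04 FPKM with LY96 siRNA. The 0 of 5 thus holds only for the 757 genes ranked, and how many of these are on the list was not counted. IFI27L1 and IFI27L2 varied too little to be ranked, and their r with IFI27 was 0.214 and -0.395.

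The values of these genes are given as a description, since a profile like that of IFI27 or IFI6 chose them, PBS libraries included. All 5 genes most like IFI27 had smaller siRNA differences than IFI27 itself, which was chosen for its large difference under HDM. FEN1 was at 76.6 FPKM (PBS) and 68.0, 69.5 and 69.8 FPKM (HDM) with control siRNA, and at 33.4 FPKM (PBS) and 31.6, 34.2 and 34.6 FPKM (HDM) with LY96 siRNA. Its siRNA difference was -1.17 under PBS and -1.03 under HDM. MARCKSL1 was at 56.8 and 39.9 FPKM with control and with LY96 siRNA under PBS, a difference of -0.50, and differed by -0.46 under HDM. For the 5 genes most like IFI6, the PBS differences ran from -0.25 for IFIT2 to -0.49 for HERC5, around the -0.44 of IFI6.

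The genes around IFI27 had smaller siRNA differences than IFI27, which was chosen for its large difference under HDM. Of the 10 tested genes nearest to IFI27, which include IFI27L1 and IFI27L2 and reach 969530 bases, 0 were called under PBS in limma, with differences from -0.13 to 0.37. Under HDM, 1 was lower, the RNA helicase gene DDX24 (-0.16 ± 0.03), and 1 was higher, the protease inhibitor gene SERPINA1 (0.56 ± 0.07). With 10 genes these counts are near the shares of all genes called under HDM (8.92% lower and 6.68% higher). Of the 10 tested genes nearest to IFI6, 0 were called under PBS, with differences from -0.12 to 0.22, and 1 (STX12) was lower under HDM (-0.26), a call lost without control HDM replicate 2 or 3 or LY96 HDM replicate 2 or 3.

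LY96 was listed at 0 FPKM in all 8 libraries, so its depletion could not be checked and groups are named by their labels. FPKM totals per library were 329777 to 340328, read depth is unknown, and log2 values of the 28 library pairs correlated at r from 0.980 to 0.995 across genes. Of the cell type markers, all 8 epithelial keratin and junction markers were present (summed FPKM 2519 to 2636 with control and 2316 to 2641 with LY96 siRNA), and the ciliated and secretory markers FOXJ1, SCGB1A1 and MUC5AC were at 0. Of the leukocyte markers PTPRC and CD3E were at 0, and 5 of 7 were below 1 FPKM, with sums of 15.9 to 27.5 FPKM (control) and 18.5 to 31.9 FPKM (LY96). CLEC4C of plasmacytoid dendritic cells, which are strong interferon producers, was at 0, as was PECAM1 of endothelium. Of the 5 fibroblast markers DCN and LUM were at 0, COL1A1 and PDGFRB were present, and the sums were 16.0 to 22.8 FPKM (control) and 16.9 to 25.7 FPKM (LY96).

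Ribosomal RNA and single libraries moved with some of these values. Under HDM, the share of ribosomal RNA in the FPKM total was 0.824%, 0.475% and 0.565% with control siRNA and 1.03%, 1.03% and 1.31% with LY96 siRNA. Control HDM replicate 2, with the lowest share, had the highest IFI27 and IFI6 of its group and the highest level for 31 of 44 listed interferon-stimulated genes. LY96 HDM replicate 3, with the highest share, had the lowest IFI27 and IFI6 among its HDM replicates and the lowest level for 32 of 44. These counts were not made over all genes, so whether they are particular to the list is not known. The part of ribosomal RNA or of single libraries in the HDM values was not tested. In the PBS libraries of control and LY96 siRNA the shares were 0.770% and 0.826%. The siRNA difference was -1.67 under PBS and -1.70 under HDM for IFI27, and the median of the listed genes was -0.13 and -0.25.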

How the data were processed

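RNA of 8 BEAS-2B libraries was analysed from 1 table per library with 26485 gene symbols. The deposited values carry no unit in the headers and were read as FPKM from their properties (not whole, totals that differ between libraries). Per the submitters' processing notes, the authors used HISAT2 2.2.0 and hg38. How reads were counted and with which annotation is not given in the sources used here. Depth is unknown, since low values showed no whole-read steps, and so counting intervals are left out.

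Libraries were grouped by title. Tests used limma 3.58.1 in R 4.3.3 (mean-variance trend, robust moderation) on log2(FPKM + 1), which understates changes of low genes, for genes whose mean reached 1 FPKM. The siRNA comparison under HDM was fitted on its 6 libraries, and the other contrasts used a model of 4 group means over 8 libraries. Each p is two-sided and Benjamini-Hochberg adjusted over all genes tested, with a threshold of 0.05. Fits were tested on simulated data. Fold values named as ratios are ratios of mean FPKM.

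The members, gene lists and rules were chosen with earlier results of these data known. Named genes were all members, the 6 most abundant interferon-stimulated genes and the 3 with the largest fall and rise under HDM, listed signalling genes, ligands and partners, the 5 genes most like IFI27 and IFI6, and the nearest neighbours. Not every gene of this rule or of the signalling list is reported here, and IFNGR1, SOCS1, BATF2 and genes called among a listed group were named after their values were seen. Coordinates are from GENCODE v29 and promoters from RefSeq (GRCh38.p14; 4 of 4 members matched). Alternatives were pseudocounts of 0.1 and 0.25, no level filter, median-ratio and quantile scaling, a replicate block and omission of each HDM library.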

Additional observations from a re-analysis of the deposited data

How the results depend on the processing

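Leaving out 1 HDM library at a time gave 1119 to 1369 genes called between the siRNAs under HDM (1966 with all), 26 to 55 under PBS (59) and 0 to 33 for the interaction (7). It gave 7 to 16 interferon-stimulated genes called lower with LY96 siRNA under HDM (18) and 0 to 1 called higher (1). Without the level filter the last 2 counts were 10 and 0, 4 listed genes were higher with HDM (8), and 20 genes were called for the interaction. Quantile scaling gave 92 genes for the siRNA effect under PBS and 11 for the interaction, and median-ratio scaling gave 86 under PBS. Pseudocounts of 0.1 and 0.25 moved no count by over 1.5 times. The cause was not tested.

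Some values that were not called changed sign. Leaving out 1 HDM library at a time, the IFI27 interaction ran from -0.13 to 0.077, the siRNA effect under HDM from -0.20 to 0.012 for IFI27L1 and from -0.063 to 0.0080 for IFITM3, and the HDM effect of IFI27L1 from -0.063 to 0.040. With quantile scaling, the siRNA effect under PBS was 0.012 for IFITM3 and 0 for IFITM2.

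Replicates of the same number were not treated as pairs in the main fits, and the labels do not say whether they were paired. Deviations of same-numbered HDM libraries correlated at r of 0.03, -0.02 and -0.02. Those of libraries with different numbers ran from -0.021 to 0.035, so these r cannot decide the question. With a replicate block, 1635 genes were called under HDM, and MX1 (adjusted p = 0.113), IFIT1 (0.0552), DDX58 (0.0886) and STX12 (0.0661) were not. Unknown depth limits what can be said of the low interferon genes, and a single PBS library per siRNA limits every comparison that uses PBS.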
